A study of Mus musculus with 2 samples.

Results

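The assembled transcripts described here come from mouse fetal liver, lie outside the genes annotated when the data were processed, and hold splice junctions within their span. They are records that the assembler Cufflinks built from the reads on the mouse build mm9. A record was taken when its span touched no ENSEMBL 65 gene on either strand and held, wholly inside it, at least 1 same-strand splice junction with 3 or more reads in both R1 and R2, the read counts of the 2 replicates in the authors' junction list. Of 88117 Cufflinks records, 23751 (27.0%) lay outside the 37310 annotated genes, and 1269 of these (5.34%) held such a junction. Records that overlapped on 1 strand were merged into 721 loci. The members were thus selected on their junction reads, so those reads, and the levels that rise with them, are given below as a description with no test.

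The tissue was whole liver of C57BL/6J embryos at embryonic day 18, taken per the labels from littermates of both sexes, with no transgene, mutation or treatment named. Poly(A)+ RNA longer than 200 nt, depleted of ribosomal RNA, was sequenced from stranded libraries as read pairs. The only group had 2 samples numbered as biological replicates, with no second condition to compare. Values of the 2 replicates are given side by side, and no p-value was computed.

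When a pre-mRNA is spliced, a read across the join of 2 exons maps to the genome with a gap. Reads with such gaps are the evidence for introns used here, and whether each gap is a spliced intron was not tested. RNAs outside annotated genes are often long non-coding RNAs, which are spliced and polyadenylated like mRNAs but have no long reading frame; they can also be mRNAs or pseudogene transcripts that an annotation had not yet listed. Fetal liver makes plasma proteins in its hepatocytes and is the main site of blood cell formation before birth. Both cell lineages therefore feed a bulk library.

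Both libraries carried the labelled tissue's markers. All 8 hepatocyte and all 7 erythroid markers stood at 1 TPM or more in both, with summed levels of 149686 and 152755 TPM for hepatocyte markers in replicates 1 and 2. The junction list held 125662357 reads in R1 and 105325114 in R2. Of 6 pancreas acinar markers, 5 reached 1 TPM in replicate 1 and 0 in replicate 2 (sums 51.0 and 0.740 TPM), while Xist, the RNA that silences an X chromosome in female cells, stood at 99.1 and 0.0200 TPM although both libraries are labelled as pools of the sexes. These differences go with the replicate number, and their part in any result below was not tested.

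The 2 RPKM values of the mm9 tables do not run in the order of the junction reads. Xist had 0.0362 as its first value (RPKM1) and 27.0 as its second (RPKM2), but 8758 junction reads in R1 and 1 in R2. The Y-linked gene Ddx3y had 2.42 and 0.000333 RPKM against 0 and 3930 junction reads. Over 5151 genes, the log2 ratio of the junction reads correlated with that of the mm10 TPM values of replicates 1 and 2 (Pearson's r = 0.828, across genes, which are not independent), and that of the RPKM values ran the other way (r = -0.457). Across 153 of the loci described here the RPKM and junction ratios also ran opposite (r = -0.634). Which replicate each RPKM value belongs to is not stated in the sources used here, so the values are called RPKM1 and RPKM2 throughout and are not assigned to a replicate number. That R1 is replicate 1 is not stated either, so R1 and R2 are given under their own names.

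The exon joins of 8 well-supported loci are printed here because the junction is what defines these transcripts. The letters come from transcripts of GENCODE M21 on GRCm38 (mm10), a later annotation. The genes shown matched 2 or more junction lengths of the locus within the stretch bounded by the same flanking genes, these included. Of them, 4833411C07Rik, Gm30262, Hand2os1 and Mug-ps1 were chosen for this after their values were seen. Each line gives the spliced RNA 5′ to 3′ as DNA letters, 40 bases on each side of the join, with the 10 bases on each side of the join in capitals. The introns removed there measured 733 nt in Gm27216, 113 nt in 4833411C07Rik, 1589 nt in Gm8883, 2287 nt in Gm30262, 1781 nt in Cyp3a63-ps, 2468 nt in Gm32540, 400 nt in Hand2os1 and 231 nt in Mug-ps1.
Gm27216: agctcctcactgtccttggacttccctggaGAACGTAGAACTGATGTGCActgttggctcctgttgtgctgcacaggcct
4833411C07Rik: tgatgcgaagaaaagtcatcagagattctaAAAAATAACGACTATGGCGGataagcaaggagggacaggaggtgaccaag
Gm8883: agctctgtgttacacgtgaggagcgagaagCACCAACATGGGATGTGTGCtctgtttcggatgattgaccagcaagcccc
Gm30262: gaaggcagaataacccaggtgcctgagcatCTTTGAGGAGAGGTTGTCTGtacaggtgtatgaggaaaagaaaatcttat
Cyp3a63-ps: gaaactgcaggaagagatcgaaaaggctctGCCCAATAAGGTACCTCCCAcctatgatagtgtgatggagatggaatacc
Gm32540: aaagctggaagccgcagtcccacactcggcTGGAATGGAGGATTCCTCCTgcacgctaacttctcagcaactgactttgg
Hand2os1: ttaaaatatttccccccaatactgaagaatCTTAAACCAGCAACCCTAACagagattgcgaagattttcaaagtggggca
Mug-ps1: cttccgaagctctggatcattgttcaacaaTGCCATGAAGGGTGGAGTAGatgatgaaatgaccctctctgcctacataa

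Most members were models of a few exons. With gaps under 20 nt between exon records closed, 104 had 1 exon, 495 had 2, 604 had 3 to 5 and 66 had 6 or more, up to 14. Their median span was 6580 bases and their median exonic length 1786 nt. The 2068 other records of 2 or more exons outside genes, which held no such junction, had medians of 4657 bases and 1028 nt. Of the members, 638 lay on the plus and 631 on the minus strand. A total of 356 loci consisted of 1 record and the largest of 5. In the 363 loci of several records with a level above 0, the highest record held a median of 63.8% of the summed RPKM, so a record's level is often only part of its locus. The contigs, stretches of stranded read coverage called by the authors, covered a median of 99.8% of a member's exonic bases. At least 90% was covered in 88.0% of members, against 57.9% of the other spliced records. Part of that gap can follow from the selection, since junction reads are also coverage.

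The members rested on 1667 distinct junctions. None equalled an annotated intron, as the rule implies. A single junction supported 390 of the loci, while 331 had 2 or more and 20 had 10 or more. Of the 1269 members, 617 (48.6%) held at least 2 supporting junctions, and in 1011 a supporting junction equalled an intron of the assembled model itself. In the other 258, the reads and the model shared a span but not an intron. The best supporting junction had a median of 11 reads in R1 and 10 in R2, and 86 loci had one with at least 100 reads in all.

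A flag in the junction list separated 2 kinds of support. Each junction there carries a flag C of 1 or 0, whose meaning is not given in the sources used here; C was 1 in 99.7% of the junctions that equalled annotated introns. Of the supporting junctions, 1503 had C = 1 and a median length of 1641 nt, near the 1346 nt of annotated junctions. The other 164 had C = 0 and a median of 156.5 nt, with 53.0% under 200 nt, against 10.8% of those with C = 1. Junctions with C = 0 made up 9.84% of the supporting junctions and 8.47% of all junctions with at least 3 reads in both R1 and R2. At least 1 junction with C = 1 was held by 1173 members in 657 loci, and 96 members in 64 loci had only C = 0. A model intron matched the reads in 83.5% of the first kind and 33.3% of the second.

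**Figure D1:**
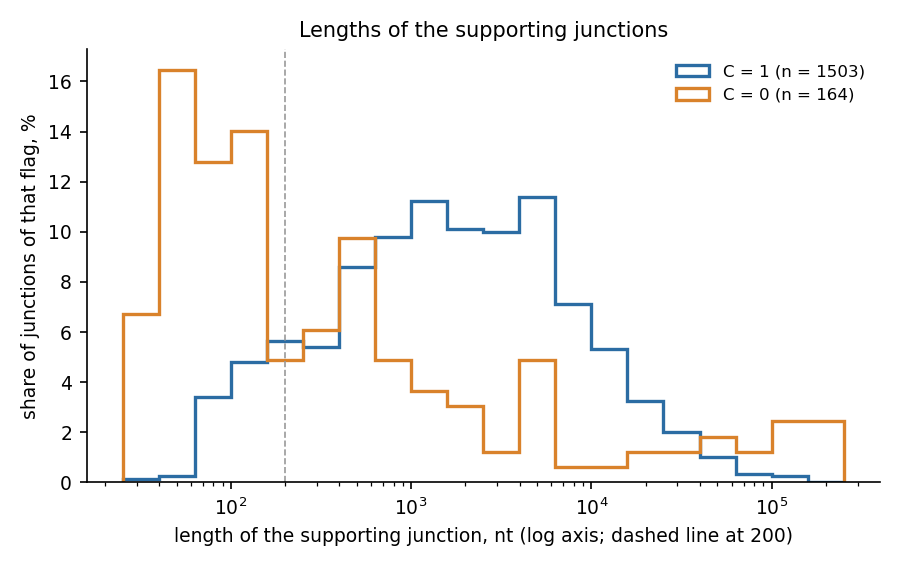
Lengths of the 1667 distinct supporting junctions (horizontal log axis, nt) as a share of the junctions of each flag (vertical axis, %), with C = 1 in blue and C = 0 in orange. The orange line is highest below the dashed line at 200 nt, where 53.0% of those junctions lie, and the blue line above 1000 nt.

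Most levels were low. The median of the members was 0.0314 in RPKM1 and 0.0299 in RPKM2. Of the mean of both values, the median was 0.0319 in the members, 0.0224 over all Cufflinks records and 0.0111 in the other spliced records outside genes. Only 56 members (4.41%) reached a mean of 0.5 RPKM and 12 reached 10, among them 4 models of 2 exons, while 44 were listed at 0 in both. The authors' iIDR field, listed for 1225 members, had a median of 0.047 in the members, in the other spliced records outside genes and over all Cufflinks records. It was at most 0.01 in 7.92% of the members, 2.70% of the other spliced records and 11.5% of all Cufflinks records.

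The highest RPKM values belonged to members whose junctions were short or had few reads. CUFF.11478.1 (chr3:5860319-5860881, plus strand) was a single block of 563 bases at 856 and 895 RPKM. It held 10 supporting junctions with C = 0, the best of 40 nt with 59 and 69 reads. CUFF.51605.1 (chr11:108872955-108873498, minus strand) stood at 572 and 616 RPKM with 5 and 5 reads across a junction of 117 nt. CUFF.62446.1 (chr14:105114987-105115350, minus strand) stood at 196 and 244 RPKM, with 6 and 6 reads across 32 nt. These 3 records held 81.0% of the members' summed RPKM1 and 83.2% of their summed RPKM2. Next came CUFF.44316.1 on chromosome 10 (52.2 and 48.9 RPKM), where a junction of 89 nt had 203 and 195 reads, and CUFF.55170.1 on chromosome 12 (46.4 and 50.9 RPKM), with 7 and 10 reads across 264 nt. The 9 others of the top 15 besides CUFF.57910.2 ran from 33.6 and 29.7 RPKM in CUFF.66392.1 to 5.53 and 4.41 RPKM in CUFF.18859.1.

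Of the 15 loci with the highest level, 11 had only junctions with C = 0, 10 had 1 exon in the leading record, and 0 matched a later gene. The exception by support was CUFF.57910.2 (chr13:67988311-68021839, minus strand), a model of 2 exons at 25.7 and 17.5 RPKM. Its best junction, with C = 1, spanned 5286 nt and had 308 and 273 reads, but it is not the intron of that model. It lies 23454 bases from BC048507. Members with a junction of C = 1 had a median of 360.0 reads across the best junction per RPKM unit, summed over both values, and those with only C = 0 had 94.6. Across the 1173 members with C = 1, reads and mean RPKM had a Spearman's rho of 0.455, and across the 96 others one of 0.127. Records of 1 locus share junctions, so the points are not independent, and junction reads are not divided by transcript length as RPKM is.

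**Figure D2:**
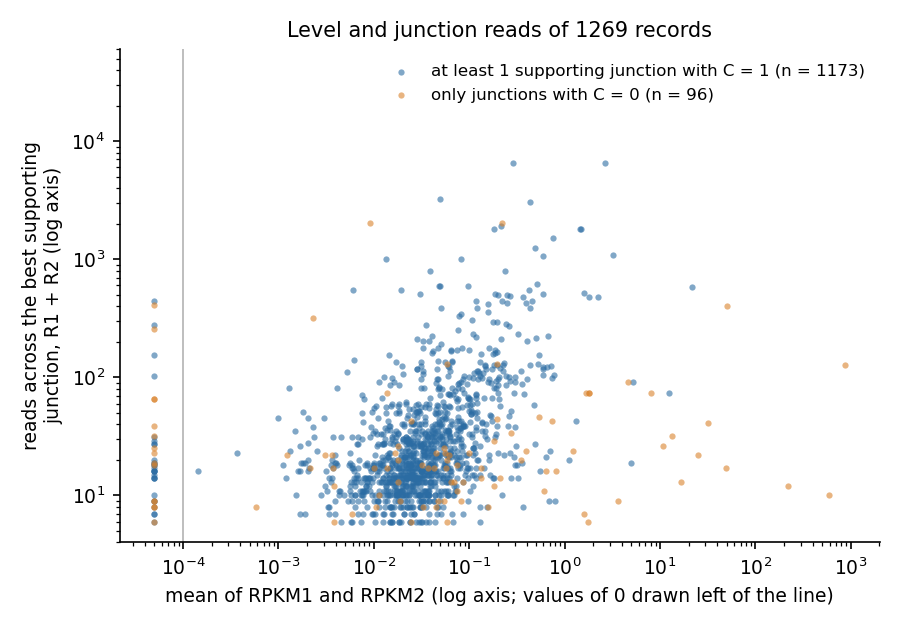
Mean of RPKM1 and RPKM2 (horizontal log axis) against the reads across the best supporting junction, R1 + R2 (vertical log axis), for 1269 members coloured by flag C; the 44 members listed at 0 are drawn left of the grey line. The points above 10 RPKM at the far right, up to 875, are mostly orange, and most blue points lie below 0.5 RPKM.

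The strongest junctions belonged to other loci, most of which a later annotation names. The first was CUFF.47214.1 (chr10:127985183-127986370, minus strand), between Zc3h10 and Pa2g4, with 3079 and 3425 reads across an intron of 228 nt. Over its 8 supporting junctions the locus held 9.00% of all supporting reads. It matched Rpl41, which encodes a very small basic protein of the large ribosomal subunit, by 4 intron lengths. Its leading record had only 2.86 and 2.50 RPKM, whereas Rpl41 stood at 1456 and 1978 TPM in replicates 1 and 2 of the mm10 tables. Different units and builds separate those values, so no fold is given.

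CUFF.43723.1 (chr10:25245258-25255967, minus strand) had 1879 and 1379 reads across an intron of 7656 nt but 0.0540 and 0.0442 RPKM. It matched Smlr1, a small protein-coding gene, by 1 intron length, and Smlr1 stood at 63.4 and 78.3 TPM. CUFF.32034.1 (chr7:72948756-72953852, plus strand) had 2303 and 727 reads across 1481 nt. It matched the long intergenic non-coding RNA (lincRNA) 1810008I18Rik by 1 intron length, at 67.9 and 26.5 TPM. CUFF.41358.1 (chr9:83134154-83148175, minus strand), 93861 bases upstream of Hmgn3, had 1000 and 922 reads across its best intron and 8 supporting junctions. It matched the lincRNA Gm27216, shown above, by 5 intron lengths, at 33.3 and 36.7 TPM. For 1810008I18Rik, R1 exceeded R2 and the TPM of replicate 1 exceeded that of replicate 2, while the values of Gm27216 were close in both. For Smlr1, R1 also exceeded R2, but the TPM of replicate 2 was the higher.

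The loci with the most junctions included a relative of a liver gene family. CUFF.25206.3 (chr5:146385325-146408761, minus strand) lies between Cyp3a41b and Cyp3a41a, genes of the Cyp3a cytochromes that oxidise drugs and steroids, and had 22 supporting junctions, the best with 341 and 277 reads. It matched the pseudogene Cyp3a63-ps by 4 intron lengths. A further junction, with 171 and 153 reads, joined its exon edge to the annotated gene Cyp3a11. Near-identical copies fill that cluster, so reads may be shared between them. CUFF.64374.3 on chromosome 15, next to Maf1, had 20 supporting junctions and matched the protein-coding gene Gm35339 by 19 of 19 intron lengths, although its best junction had only 84 and 92 reads. CUFF.3365.1 on chromosome 1 had 16 and matched the lincRNA Gm19705 by 4 intron lengths, at 2.20 and 2.29 TPM.

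Matching to the later annotation was possible for 702 loci and found a gene for 216 of them (30.8%). A match means that GENCODE M21 has, on the same strand, an intron of exactly the same length in the stretch from one flanking gene to the other. The flanking genes themselves were part of that stretch. Each flank was the nearest gene found in GENCODE M21 among the 8 annotated genes on that side. It rested on 1 intron in 130 loci, on 2 or more in 86 and on 4 or more in 27, and it was ambiguous between genes in 4. A match by 1 length can arise by coincidence, at a rate that was not measured. The matched genes were lincRNAs in 141 loci, protein-coding in 36, pseudogenes in 18 and other non-coding classes in 21. In 17 loci the matched gene was already in ENSEMBL 65, as for the splicing kinase gene Prpf4b (CUFF.56561.2, 527 and 555 reads, 4 of 4 intron lengths). Others rested on 1 length, such as Ppp2r5a (1 of 3, 30452 bases away) and Sod2 (1 of 1, 16819 bases away). Whether such matches are coincidences or other ends of the gene was not tested. The genes named here were chosen after their values were seen. The rest of the matched loci matched 196 genes with no entry in ENSEMBL 65.

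Loci with more reads were matched more often. Matched loci had a median of 30.5 reads across the best junction and unmatched ones 17. The share matched was 22.3% at 6 to 19 reads, 30.4% at 20 to 49, 56.3% at 50 to 99 and 46.3% at 100 or more. Loci with more junctions also had more lengths to match, with medians of 2 junctions in matched and 1 in unmatched loci. Of the matched loci, 215 had a junction with C = 1 and 1 had none, where 642 and 60 such loci had been searched. Of the 196 later genes, 51 were in the mm10 tables of these samples, with medians of 0.60 and 0.58 TPM, and 18 reached 1 TPM in both replicates. Over the 53 loci that matched them, reads across the best junction and mean TPM had a Spearman's rho of 0.762, and summed RPKM and mean TPM one of 0.640. The same libraries gave all these values, and very high genes such as Rpl41 set part of the range.

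**Figure D3:**
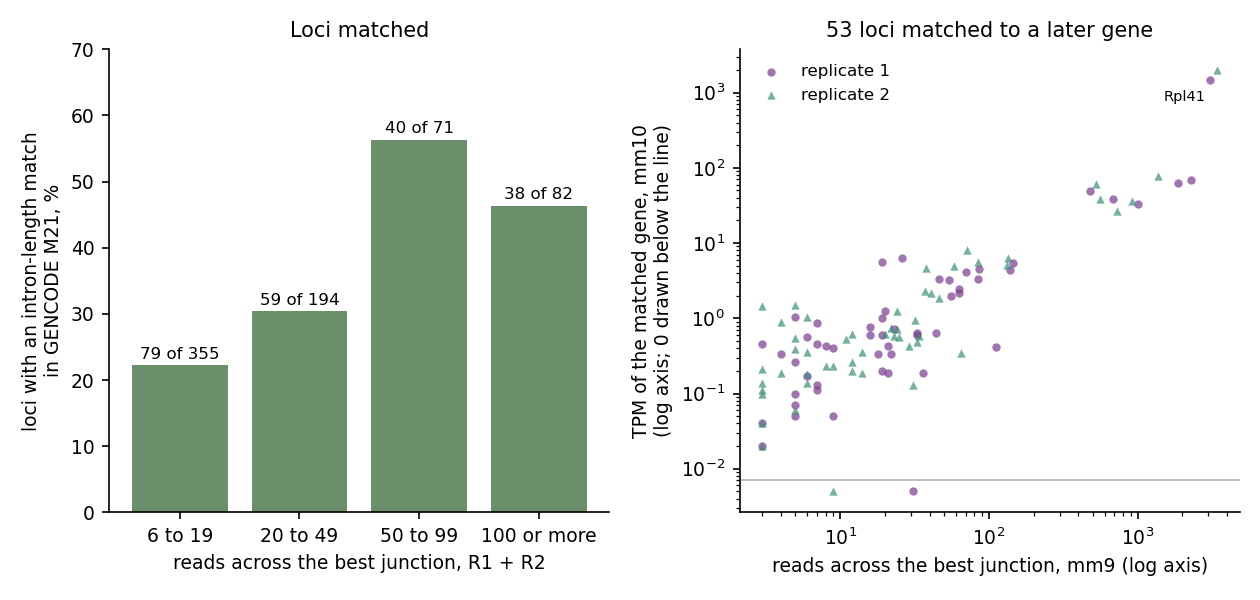
Left, share of searched loci with an intron-length match (vertical axis, %) by reads across the best junction, with the counts above each bar, from 79 of 355 loci to 38 of 82. Right, reads across the best junction on mm9 (horizontal log axis) against TPM of the matched gene on mm10 (vertical log axis) for 53 loci, with circles for replicate 1 and triangles for replicate 2; Rpl41 is at the upper right, and values of 0 are drawn below the grey line.

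Further matched loci are given with their neighbouring genes; all but Gm8883 were chosen after their values were seen. CUFF.36020.1 (chr8:59783059-59799672, minus strand) begins 107 bases from Hand2, a transcription factor gene of heart and limb, on the opposite strand. It had 12 supporting junctions, all 12 lengths of which matched the non-coding RNA Hand2os1, and that gene stood at 4.06 and 4.88 TPM. CUFF.29337.1 on chromosome 6, 3460 bases past the cell cycle inhibitor gene Cdkn1b, matched the lincRNA Lockd by 1 of 4 lengths. Its best junction spanned 22045 nt with 478 and 524 reads, and Lockd stood at 48.7 and 60.2 TPM. CUFF.28836.1 (chr6:122176484-122190447, plus strand), whose model has 14 exons, matched Mug-ps1, a pseudogene of the murinoglobulin protease inhibitors, by 10 of 10 lengths. CUFF.29621.2 on chromosome 6 lies between Slco1a4 and Slco1a1, which encode organic anion transporters, and matched the lincRNA Gm30784 (153 and 67 reads). CUFF.27236.1, between Thnsl2 and the liver fatty acid binding protein gene Fabp1, matched the lincRNA Gm44427 (73 and 28 reads). Gm8883 on chromosome 1 (CUFF.1740.1, 688 and 557 reads), more than 100000 bases from any gene of ENSEMBL 65, stood at 38.1 and 38.4 TPM. 4833411C07Rik on chromosome 8 (CUFF.34817.2, 868 and 919 reads, 1.42 and 1.57 RPKM) and Gm30262 on chromosome 10 (CUFF.46420.1, 505 and 287 reads) each matched 3 of 11 lengths.

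Some loci with many junctions or many reads had no match or were not searched. CUFF.52929.3 (chr12:32773756-32807642, minus strand) lies between Prkar2b and Pik3cg, had 14 supporting junctions, 281 and 264 reads across an intron of 4810 nt, and stood at 1.63 and 1.55 RPKM. CUFF.15340.3 (chr4:3016744-3017997, minus strand) packed 14 junctions into 1254 bases, with 263 and 182 reads across the best; it has no annotated gene on its left and was not searched. CUFF.78544.2 (chrX:86005195-86005682, minus strand), 302 bases from Mir1906-2, had 967 and 1068 reads across a junction of only 44 nt with C = 0, at 0.152 and 0.285 RPKM. Only an intron of equal length was looked for, so a later gene with other ends would be missed.

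Counted by locus, the members lay about as far from genes as other spliced records. The median distance to the nearest gene was 15475 bases over the 721 loci and 14716 over the 1704 loci merged from the other spliced records, and 27.6% and 27.7% lay within 5000 bases. By record, the median distance to the nearest ENSEMBL 65 gene was 16907 bases, against 15333 for the other spliced records and 9300.5 for all records outside genes that were not members. Within 5000 bases lay 306 members (24.1%), against 26.5% of the other spliced records, and 274 members lay beyond 50000 bases. Upstream of the gene on the opposite strand, the arrangement of divergent transcription, lay 7.96% of the members and 8.80% of the other spliced records. Downstream on its strand, where a longer 3′ end of the gene would lie, were 6.07% (77 members) and 8.56%. A further 75 members were upstream on its strand and 53 downstream on the opposite strand. Records of 1 locus are counted separately in these shares. By locus, 66 of 721 lay upstream on the opposite strand and 51 downstream on the same strand. The other spliced records were not split this way by locus. The nearest gene had a median of 0.568 RPKM by record and 0.490 by locus. That median was 0.453 for all records outside genes that were not members and 0.183 for the other spliced records. Over all genes the median was 0.0109. No locus had one of the 8 hepatocyte or 7 erythroid markers of the lists as its nearest gene, and 1 had the macrophage marker Clec4f. The lists hold few of the 37310 annotated genes, so these counts say little about the members.

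**Figure D4:**
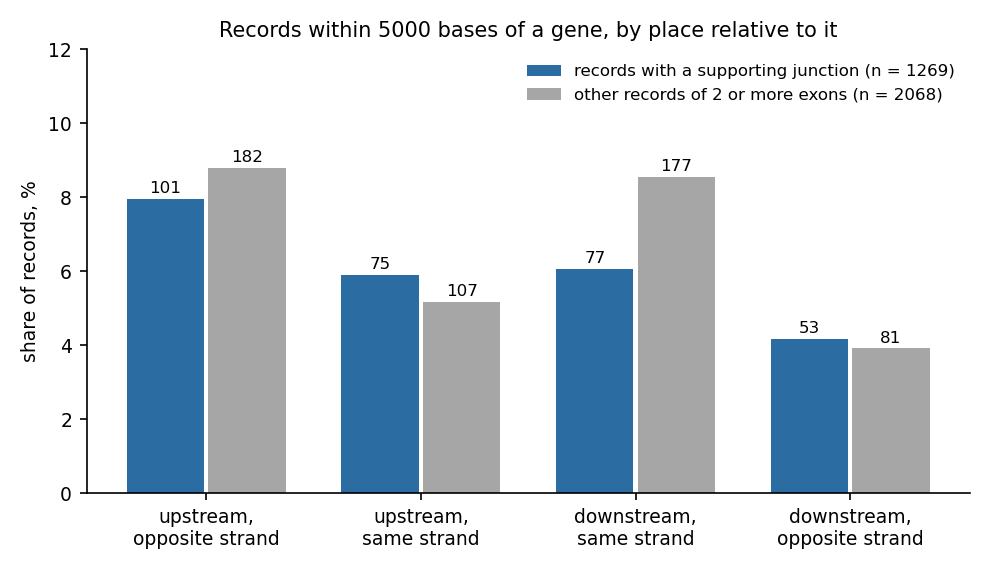
Share of records (vertical axis, %) within 5000 bases of a gene, by their place relative to it, for the 1269 members in blue and the 2068 other records of 2 or more exons in grey, with counts above the bars. The downstream, same-strand bars differ most, with 77 members and 177 others.

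A few members were joined to annotated genes by further junctions. In 25 members of 21 loci (1.97% of members), a junction with at least 3 reads in both R1 and R2 led from an exon edge into a gene on the same strand. The next after Cyp3a11 by reads, named after their values were seen, joined CUFF.65983.1 on chromosome 15 to ENSMUSG00000014372 (159 and 121 reads) and CUFF.69025.1 on chromosome 17 to Tmem181a (123 and 32 reads). The locus of Mug-ps1 was joined to Mug1 by 32 and 6 reads and that of Gm27216 to Hmgn3 by 7 and 5. Members were found on every chromosome but Y, where 24 records lay outside genes. Their share of those records ranged from 2.12% on chromosome 11 (23 members) to 6.99% on chromosome 13 (91 members).

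The 2 libraries were set against each other to see how far the members' values repeat. With 1 library on each side there is no test, and in bulk tissue fewer cells of a type and less RNA per cell cannot be told apart. On log2(RPKM + 0.1), 56 members passed a mean of 0.5 RPKM, and 9 of them (16.1%) differed beyond 2-fold between RPKM1 and RPKM2, where 9.72% of the 5433 Cufflinks records at that level did. Their median log2 ratio of RPKM2 over RPKM1 was -0.18, against -0.05. With RPKM summed over each locus, 4 of 55 loci (7.27%) differed beyond 2-fold, where 1.75% of 5873 loci merged from all Cufflinks records did. The 55 loci summed member records only, while the 5873 summed all their records. The sets were not matched by level, so the shares are not fully alike. Of the 9 records, 7 were in loci of several records, and 6 had only junctions with C = 0.

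Among the 9 records, CUFF.25563.2 and CUFF.25563.1 on chromosome 6, share a locus and moved in opposite directions. The first had 2.80 and 0.577 RPKM and the second 0.557 and 3.09, while the sums of their locus were close, 12.3 in RPKM1 and 10.99 in RPKM2. CUFF.34755.2 (chr8:10859372-10866283, minus strand), which matched the lincRNA Gm32540, had 3.70 and 0.814 RPKM, but its best junction had 230 and 245 reads. CUFF.64259.2 on chromosome 15, upstream of Ly6e and matched to Gm39556, had 0.994 and 0.358 RPKM with 126 and 100 reads. In both, the RPKM values differed more than the junction reads. That did not hold for CUFF.163.2 on chromosome 1, which had 0.854 and 0.340 RPKM and 18 and 86 reads. RPKM values and junction reads do not run in the same order, as given above.

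The largest difference of the 9 was that of CUFF.22143.2 (chr5:80067144-80067491, minus strand), at 0.985 and 0.0844 RPKM, a log2 ratio of -2.56. It is a single block of 348 bases whose junction had 17 and 29 reads. CUFF.64134.1 on chromosome 15 had 1.90 and 0.563 RPKM, with 14 and 10 reads across its best junction. CUFF.22181.1 on chromosome 5 had 1.18 and 0.464 RPKM, with 3 and 13 reads. CUFF.57917.4 on chromosome 13 had 0.297 and 0.932 RPKM, with 6 and 5 reads. Of the named loci with the highest ratios, only CUFF.57917.4, at 1.38, passed 2-fold; the others, CUFF.62446.1, CUFF.74975.1, CUFF.1740.1 and CUFF.59286.1, had log2 ratios of 0.31, 0.21, 0.20 and 0.15.

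Junction reads gave a second view, scaled by the total of R1 and of R2. Of 322 supporting junctions with at least 50 reads in all, 32 (9.94%) differed beyond 2-fold, where 2.36% of 121880 junctions with at least 3 reads in both and 50 in all did. The members' junctions had fewer reads, a median of 98 against 265. From 50 to under 200 reads, 30 of 241 (12.4%) differed, where 4.77% of all such junctions did. The junctions of 1 locus share its RNA, so these are not independent counts. The median log2 ratio of R2 over R1 was -0.02 for the 322 junctions and 0.09 for all.

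With junction reads summed over each locus, 24 of the 237 loci with at least 50 reads (10.1%) differed beyond 2-fold, 12 in each direction, where 1.57% of 11931 loci merged from all Cufflinks records did. Median reads were 127 and 2353. From 50 to under 200 reads the shares were 12.6% of 159 loci and 6.81% of 1571. The loci named in this paragraph were chosen after their values were seen. The largest difference was at Mug-ps1, where CUFF.28836.1 had 565 reads in R1 and 66 in R2 and Mug-ps1 had 3.37 and 0.360 TPM. A neighbouring locus that matched the same gene, CUFF.28843.3, had 46 and 6. The expected counts of Mug-ps1 were not whole numbers, at 1463.66 and 143.17, so some of its reads may be shared with related genes. In 1810008I18Rik, 2627 and 852 reads went with 67.9 and 26.5 TPM. CUFF.40972.5 on chromosome 9, between the hepatic lipase gene Lipc and the aquaporin gene Aqp9, had 96 and 31 reads, and CUFF.75341.2 on chromosome 19, between the organic anion transporter relatives Slc22a27 and Slc22a28, had 135 and 52. All of these were higher in R1. In R2, CUFF.61074.2 on chromosome 14, matched to Gm43305, was higher with 11 and 55 reads, and so was CUFF.163.1 on chromosome 1, beside Cpa6, with 43 and 129. Beside these, pancreas acinar markers summed to 51.0 and 0.740 TPM in replicates 1 and 2 and striated muscle markers to 15.3 and 6.6 TPM, with 3 and 1 of 4 at 1 TPM. Neutrophil markers ran the other way, at 8879 and 12820 TPM, with all 6 at 1 TPM in both. Their part in these differences was not tested. Over 24 loci matched to later genes with at least 50 reads at the best junction, the sign of the junction ratio was that of the TPM ratio in 17, and the sign of the RPKM ratio was in 3.

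**Figure D5:**
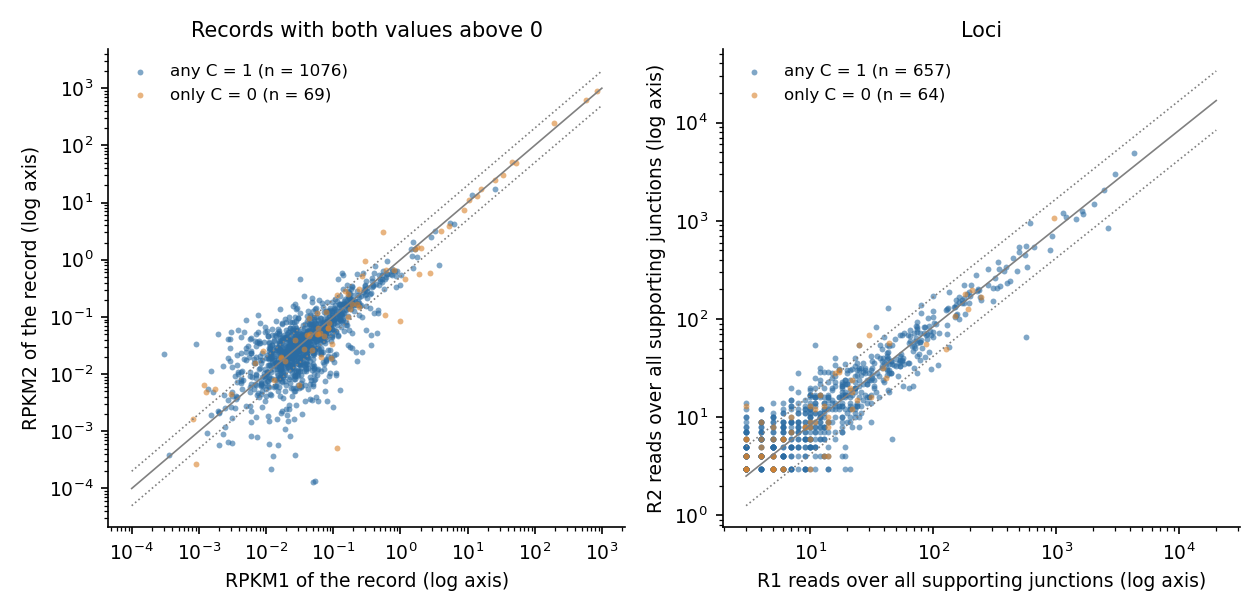
Left, RPKM1 against RPKM2 (log axes) for the members with both values above 0. Right, R1 against R2 reads summed over the supporting junctions of each of the 721 loci (log axes); solid lines mark equal values (right, at equal depth), dotted lines 2-fold differences, and colours the flag C. Points spread widest at low values, and the point far below the lines at 565 and 66 reads is Mug-ps1.

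The longest loci and those farthest from genes had between 9 and 66 reads across their best junction, where the median over all loci was 19. The longest locus, CUFF.2663.1 on chromosome 1, spanned 347437 bases on 1 junction of 175819 nt with C = 0 (41 and 25 reads). CUFF.34285.1 on chromosome 7 spanned 271778 bases (7 and 9 reads) and CUFF.25794.1 on chromosome 6 270256 (5 and 4 reads). All 3 leading records were listed at 0 RPKM in both values. Farthest from any gene were CUFF.46477.2 on chromosome 10, 727705 bases from Trhde (10 and 5 reads), CUFF.54678.1 on chromosome 12 (13 and 9 reads), and CUFF.543.1 on chromosome 1 (20 and 22 reads). The last matched the lincRNA Gm5524 by 1 intron length, at 1.24 and 0.750 TPM.

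The limit of 3 reads fell within a continuous range. The best junction had exactly 3 reads as its lower value in 147 members, and 331 further records outside genes had 2. The highest of the members at the limit by RPKM were CUFF.59286.1 (10 and 3 reads, 15.7 and 17.5 RPKM), CUFF.58731.1 (6 and 3 reads, 3.98 and 3.23 RPKM) and CUFF.55933.1 (3 and 3 reads, 1.78 and 1.70 RPKM), all on chromosome 13. Just outside were CUFF.37057.1 on chromosome 8 (2 and 6 reads, 1.03 and 0.882 RPKM), CUFF.58198.1 on chromosome 13 (2 and 4 reads, 0.611 and 0.535 RPKM) and CUFF.60983.1 on chromosome 14 (2 and 7 reads, 0.605 and 0.473 RPKM).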

How the data were processed

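The authors processed both replicates together on mm9 with ENSEMBL 65, per the file headers, and each library alone on mm10 with annotation M4, per the notes deposited with each sample. The deposited mm9 tables give 2 RPKM values (reads scaled by length and library size) per gene and per assembled transcript, whole junction read counts per replicate, and a contig signal. The authors' mm10 tables give TPM and expected counts per gene, which on mouse genes summed to 159127988 and 136904873. No aligner is given in the sources used here.

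Members, loci, distances (bases between spans) and coverage were computed with Python 3.11.15 and numpy 2.4.6, with 1-based coordinates on mm9 and none converted. Exon gaps under 20 nt, which made up 72.3% of the gaps in the assembled models, were closed. Log2 ratios used 0.1 RPKM or 0.5 reads as pseudocount. Sequences were read from GENCODE M21 transcripts by identifier. The member rule and the 2-fold count were tested on simulated data and by direct search.

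Named loci were the 15 of highest mean RPKM, 5 by best junction reads, 5 by junction number, 3 by span, 5 highest and 5 lowest ratios at 0.5 RPKM and 10 reads, 3 by distance, and the records at the read limit. The members and lists were chosen with earlier results of these data known. Each value comes from 1 library; nothing in the labels ties the 2 to separate litters.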

Additional observations from a re-analysis of the deposited data

How the results depend on the processing

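The counts depended most on the read limit. With at least 10 reads in R1 and R2 there were 552 members, 301 loci and 227 members with 2 or more supporting junctions, and with at least 1 read 2187, 1335 and 1211. With 1 replicate left out, asking only R2 or only R1 for 3 reads, the ranges were 1750 to 1858 members, 1041 to 1127 loci and 876 to 948 members with 2 or more junctions. The counts stayed within 1.5 times with genes allowed on the other strand, with no gene within 5000 bases, with junctions on either strand, with a junction equal to a model intron (1011 members) and, chosen after seeing the data, with a junction of C = 1 only. The median level was 0.0299 to 0.0314 RPKM with 1 RPKM value alone, 0.0476 with the highest record of each locus and 0.0305 with no gene within 5000 bases. The median best junction had 10 to 11 reads in 1 replicate alone and 20 in both. Beyond 2-fold between RPKM values lay 3 members with a pseudocount of 1 RPKM, 38 of 1269 with no filter on low values, 1 of 20 at a mean of 2 RPKM or more, and, added after seeing the data, 4 with RPKM summed over each locus and 3 of 32 with a junction of C = 1. The median log2 ratio was -0.0138 with no filter, 0.0608 from the best junction reads of the same members, and 0.18 with RPKM1 taken as replicate 2. As given above, the RPKM and junction ratios ran opposite across 153 of the loci (r = -0.634). The part of that order in the sign change with junction reads was not tested. The closing of exon gaps was also chosen after seeing the data. At a median of 20 reads per best junction, counting error is large, and the shares of junctions and loci beyond 2-fold were counted from 50 reads. No paired analysis was possible because there is 1 group.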
